A study of Mus musculus with 6 samples.

Results

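Small nucleolar RNAs (snoRNAs) and their host genes were examined in intestinal crypts of WT and Mtg16-/- mice. Members were all rows of the expression table whose gene symbol starts with Snora, Snord or Snhg, which gave 126 of 24736 rows, with 36 Snora, 74 Snord and 16 Snhg genes. The libraries came from crypt epithelium of 12-week-old males, 3 WT and 3 labelled as Mtg16 KO, which are called Mtg16-/- here. No other treatment was given, and the groups shared the isolation in cold PBS with 2 mM EDTA for 30 minutes and the library kit. The labels describe the knockout as made by CRISPR, whereas the study describes mice received as a gift, and this was not resolved here. Neither source limits the knockout to a cell type. The p-values measure the spread between these samples.

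SnoRNAs are short nuclear RNAs that guide chemical changes of ribosomal and spliceosomal RNA by base pairing. Box C/D snoRNAs (Snord) guide 2′-O-methylation with the methyltransferase fibrillarin, and box H/ACA snoRNAs (Snora) guide the isomerisation of uridine to pseudouridine with the synthase dyskerin. Most mammalian snoRNAs lie in introns of a host gene and are trimmed out of the excised intron. Some hosts encode proteins, often of the ribosome, whereas others, among them the Snhg genes and Gas5, are spliced noncoding RNAs that are mostly degraded after splicing.

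The values were TPM, transcript levels per length, which RSEM scales to the same total in every library. RSEM divides the reads of a transcript by its effective length, the number of positions at which a fragment could start, so the values of RNAs as short as these depend strongly on the length used. TPM keeps no read number, and the depth behind each value is unknown. Cbfa2t3, the gene that encodes MTG16, had a TPM of 3.67, 6.69 and 4.52 in WT and of 4.62, 6.43 and 3.23 in Mtg16-/- libraries. These values overlapped, so the level of the targeted gene does not check the labels.

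The sequences of 9 snoRNAs on which the results below turn are shown first, from the GENCODE vM21 transcripts on GRCm38. Snord17 and Snord22 ranked 1 and 3 among all snoRNAs in the step measure described below, Snord15a and Snord15b share 1 host gene, and Snord83b is the shortest by RefSeq length among members with a value in every library. In Snord RNAs the capitals mark box C (TGATGA, searched from the first 20 bases) and box D (CTGA, searched in the last 15 bases) on the RNA strand.
Snord17: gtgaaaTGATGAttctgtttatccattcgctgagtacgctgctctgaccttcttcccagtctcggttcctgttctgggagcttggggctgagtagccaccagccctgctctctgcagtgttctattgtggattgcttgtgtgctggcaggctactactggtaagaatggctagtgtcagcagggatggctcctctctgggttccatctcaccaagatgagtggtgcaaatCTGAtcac
Snord22: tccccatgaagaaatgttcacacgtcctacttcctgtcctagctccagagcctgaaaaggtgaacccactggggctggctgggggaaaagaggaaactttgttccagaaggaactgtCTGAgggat
Snord15a: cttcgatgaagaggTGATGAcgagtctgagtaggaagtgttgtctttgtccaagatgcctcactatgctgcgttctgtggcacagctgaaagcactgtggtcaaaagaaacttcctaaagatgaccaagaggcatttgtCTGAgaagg
Snord15b: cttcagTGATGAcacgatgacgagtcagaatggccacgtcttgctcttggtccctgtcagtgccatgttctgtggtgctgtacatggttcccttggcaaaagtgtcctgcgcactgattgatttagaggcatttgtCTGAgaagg
Snord83b: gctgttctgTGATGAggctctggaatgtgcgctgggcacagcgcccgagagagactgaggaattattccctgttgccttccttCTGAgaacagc
Snord17 lies at chr2:144265979-144266216, minus strand, inside Snx5, a sorting nexin gene. Snord22 lies at chr19:8725866-8725991, plus strand, inside Snhg1. Snord15a lies at chr7:99482785-99482932, minus strand, and Snord15b at chr7:99479563-99479707, minus strand, both inside Rps3, which encodes a protein of the small ribosomal subunit. The pair was identical at 107 of 162 aligned columns (66%). Snord83b lies at chr15:80078498-80078591, minus strand, inside Rpl3.

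The 4 Snora RNAs below are the members whose levels did not overlap between the genotypes (Snora17, Snora21 and Snora70), and Snora61, which was listed at 0 in every library. Capitals mark a match near the middle to ANANNA, the pattern of box H, and the ACA of the 3′ end, searched in the last 9 bases. ANANNA can match at several places, as it does in Snora17 and Snora21, so the marked stretch need not be box H.
Snora17: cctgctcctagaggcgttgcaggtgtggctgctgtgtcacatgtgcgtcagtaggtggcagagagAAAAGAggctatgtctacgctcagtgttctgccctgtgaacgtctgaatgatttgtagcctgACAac
Snora21: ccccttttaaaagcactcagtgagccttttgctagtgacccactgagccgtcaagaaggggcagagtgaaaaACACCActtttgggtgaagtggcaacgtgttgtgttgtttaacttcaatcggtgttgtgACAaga
Snora70: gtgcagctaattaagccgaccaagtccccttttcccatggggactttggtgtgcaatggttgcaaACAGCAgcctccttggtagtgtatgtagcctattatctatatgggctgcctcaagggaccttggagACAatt
Snora61: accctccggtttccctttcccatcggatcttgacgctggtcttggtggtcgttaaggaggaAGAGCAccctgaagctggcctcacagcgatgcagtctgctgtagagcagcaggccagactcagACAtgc
Snora17 lies at chr2:26639190-26639321, minus strand, inside the noncoding gene Snhg7. Snora21 lies at chr11:97781639-97781775, minus strand, inside Rpl23, and Snora70 at chrX:74272484-74272620, plus strand, inside Rpl10. Snora61 lies at chr4:132310240-132310369, plus strand, inside Snhg12. Among the 72 Snord members with a GENCODE transcript, 46 (63.9%) held TGATGA and 66 (91.7%) held CTGA in these windows, against 71.1% and 93.8% of all 97 GENCODE genes with a Snord name. Among the 36 Snora members, 33 (91.7%) held ANANNA and 34 (94.4%) held ACA, against 92.5% and 95% of all 40 Snora genes. Snord22 is a member in which only CTGA was found.

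Whether a snoRNA had any value followed its length. Of the 110 snoRNAs, 51 were above 0 in at least 1 library and 59 were listed at 0 in all 6. Members were compared by their length in RefSeq on GRCm38.p6, which was known for 109 of them. All 48 snoRNAs of up to 76 bases were at 0 in every library, 45 of them Snord and 3 Snora. Of the 61 snoRNAs of 77 bases or more, 51 were above 0 in at least 1 library, with 30 of 33 Snora and 21 of 28 Snord. The limit was not particular to snoRNAs, since all 547 rows of the table with a RefSeq length of up to 76 bases were at 0 everywhere, 486 of them microRNA genes. Small Cajal body RNAs, the relatives that guide changes of spliceosomal RNA, split in the same way. Scarna2, Scarna9, Scarna10 and Scarna17, of 42 to 71 bases, were at 0, while Scarna13, of 275 bases, lay between 571.3 and 749.89 TPM.

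**Figure D1:**
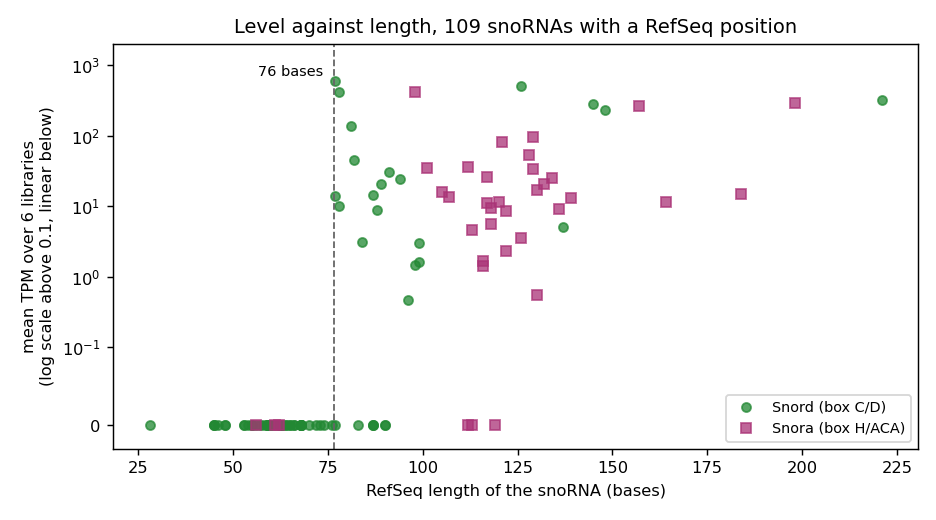
Mean TPM over the 6 libraries (log scale above 0.1) against RefSeq length in bases for the 109 snoRNAs with a RefSeq position, box C/D as circles and box H/ACA as squares. The 48 members left of the dashed line at 76 bases all sit at 0, and 51 of the 61 to its right lie above 0.

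A value of 0 for a short member is thus no measurement of whether the RNA was present in crypts. The host genes of these members did have values. Of the 48 short members, 47 had a host in the table, and for 45 of them the host had a mean of at least 10 TPM. The median of these 47 host means was 97.4 TPM. The limit followed RefSeq lengths rather than those of GENCODE. In GENCODE, 19 of the 48 are 77 bases or longer, up to 132 bases, all 3 Snora among them. Snora61 is one of these, with 62 bases in RefSeq and 130 in the sequence above. It was listed at 0 in all libraries, while Snora44 and Snora16a of the same host, Snhg12, had values. The gene models that the authors used are not given in the sources used here.

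The 10 longer members at 0 had several kinds of host. Snord14a lies in Rps13, and Snord14c and Snord14d lie in Hspa8, a constitutive Hsp70 chaperone. Rps13 had between 744.3 and 1404 TPM and Hspa8 between 1598 and 2926 TPM, so these 3 copies of U14, a snoRNA needed to process the small-subunit ribosomal RNA, were at 0 in strongly expressed hosts. Snord96a, of 77 bases, was also at 0 although its host Rack1 had between 909.1 and 1784 TPM. Snora35 and the 2 members named Snord116l lie in hosts that were themselves near 0. Htr2c, a serotonin receptor gene of neurons, was at 0 in every library, and Snhg14, the host of the imprinted Snord116 cluster, did not exceed 0.13 TPM. The other 3 were Snora2b in Kansl2, Snora36b in Rab3gap2 and Snord92 in Wdr43, whose hosts lay between 14.85 and 55.07 TPM. Snord116, which had no RefSeq position, was also at 0.

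Low snoRNA values lay on a ladder of equal steps. When each value was multiplied by the RefSeq length less 74.5 bases, most values of a library were whole multiples of 1 unit, which is what a single read would be worth if the authors counted whole reads. The unit was fitted in each library on 73 short rows that are no members. Of the 155 member values under 8.5 steps, 90.3% fell within 0.1 of a whole number of steps, a tolerance that spans 20% of the number line. Members of equal length show this directly. Snora34 and Snora65, both of 118 bases, had the same 5.39 TPM in WT 2 and the same 5.94 TPM in WT 3, and in WT 1 their 4.9 and 19.59 TPM stood at a ratio of 4.0. Snord8 and Snord23, both of 99 bases, both had 9.6 TPM in WT 2. The steps are a description of the values, and no test was run on them.

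The height of a step depended steeply on length. For an RNA of 77 bases, 1 step was worth between 61.5 and 104 TPM depending on the library, against 3.54 to 6 TPM at 118 bases and 1.05 to 1.78 TPM at 221 bases. The order of the snoRNAs by TPM and by steps therefore differed. Snord83b, of 77 bases, had the highest mean of all snoRNAs, 593 TPM, but ranked 13 by steps, with between 2.14 and 15.2 steps in a library. Snord55, of 78 bases, ranked 3 by TPM with a mean of 412 TPM and 15 by steps, with 1.03 to 18.2. These 2 RNAs made up between 11.4% and 34.2% of the summed snoRNA TPM of a library but between 0.528% and 2.26% of its steps. Snord17, of 221 bases, ranked 5 by TPM and 1 by steps, with 156 to 317 in each library. The height of a step also differed by genotype. At 77 bases it was 86.3, 94 and 104 TPM in WT and 61.5, 82.5 and 70.4 TPM in Mtg16-/- libraries. A value of 1 step was thus lower in every Mtg16-/- library than in every WT library. The part of this in the number of members with a value in each genotype was not tested.

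Signal was concentrated in few snoRNAs. The 10 members with most steps held 89.1% of the 6237 steps of all snoRNAs over the 6 libraries. Of the 51 members with a value, 27 were above 0 in every library, 9 in a single library, and 18 had fewer than 10 steps in all libraries together. Only 8 had at least 10 steps in every library. They were Snord17, Snora74a, Snord22, Snora78, Snord15b, Snord15a, Snora68 and Snora26 in order of steps.

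**Figure D2:**
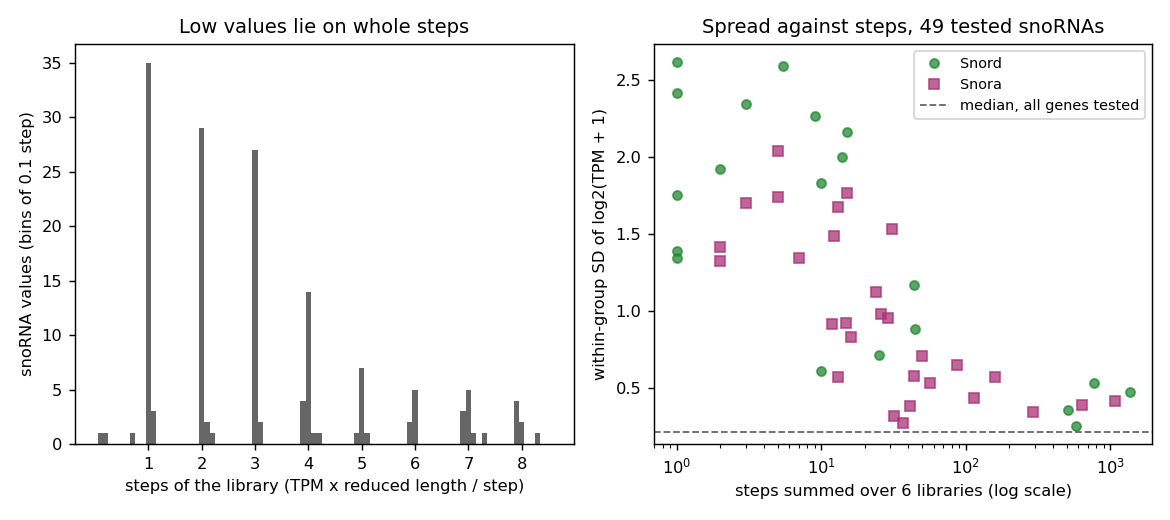
Left, how many snoRNA values under 8.5 steps fell into each bin of 0.1 step, where steps are TPM times the length less 74.5 bases over the unit of the library. The values pile up at whole numbers. Right, the within-group standard deviation of log2(TPM + 1) against the steps summed over the 6 libraries (log scale) for the 49 snoRNAs with a mean of at least 1 TPM. The spread is widest at the left, and no point lies below the dashed median of all genes, 0.21.

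The spread among libraries of 1 genotype was far wider for snoRNAs than for their hosts. For the 49 snoRNAs with a mean of at least 1 TPM, the within-group SD of log2(TPM + 1) had a median of 0.98, against 0.21 over all 12268 genes at that limit. It was 0.91 for 29 Snora and 1.57 for 20 Snord. The 14 Snhg genes at that limit had a median of 0.28, and the 74 hosts of snoRNAs 0.22. The snoRNA had a wider spread than its own host in 45 of 47 pairs. Spread narrowed with the number of steps. The median SD was 1.76 for members at 0 in at least 1 library, 0.57 for the 27 above 0 in all, and 0.40 for the 8 with at least 10 steps in every library. Across the 49 snoRNAs, Spearman's rho between summed steps and SD was -0.78, as a description over RNAs that share the same 6 libraries.

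At the wide end, Snord1b and Snord1c had 83.62 and 59.54 TPM in Mtg16-/- 2 and were at 0 in the other 5 libraries. Each value was 1.01 steps. Both lie in Snhg16, which the table lists as 1810032O08Rik, and their sequences were identical at 74 of 76 aligned columns (97.4%), so reads could be shared between them. Snord35b had the second widest SD, 2.59, with values from 0 to 22.65 TPM in WT and from 0 to 26.82 TPM in Mtg16-/- libraries. At the narrow end stood Snhg18 with an SD of 0.08, Snhg1 with 0.18 and Snhg12 with 0.18, all 3 spliced host genes.

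One library stood apart in the snoRNAs. Mtg16-/- 2 had the highest value for 18 of the 27 snoRNAs above 0 in every library (66.7%), against 20.3% of all genes tested. Over all genes tested, WT 1 held the highest value most often, for 31.4%. The median deviation of the tested snoRNAs from their means was 0.66 in Mtg16-/- 2 and 0.13 in Mtg16-/- 3 on the log2 scale, but -0.43 in Mtg16-/- 1, at the level of WT 3 with -0.44. WT 1 and WT 2 had -0.28 and -0.29. These medians include 4 snoRNAs with a value in Mtg16-/- 2 alone, whose sign in that library the filter fixed. The number of snoRNAs above 0 was 36, 40 and 34 in WT and 36, 44 and 40 in Mtg16-/- libraries. Their summed TPM was 4246, 3176 and 3550 in WT and 3272, 6807 and 4076 in Mtg16-/- libraries, and without Snord83b and Snord55 it was 3046, 2694 and 3146 against 2449, 4481 and 3282. The genotypes overlapped in each of these TPM sums. Summed steps were 862.1, 791.6 and 788.7 in WT and 1088, 1477 and 1230 in Mtg16-/- libraries. These did not overlap, but a step was worth less TPM in every Mtg16-/- library than in every WT library.

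WT and Mtg16-/- crypts were compared to ask whether loss of this transcriptional corepressor goes with a change of snoRNAs or their hosts. No member passed the test. The test was limma's moderated test on log2(TPM + 1) over the 12268 genes with a mean of at least 1 TPM, called at a Benjamini-Hochberg adjusted p under 0.1. In all, 4 genes of the table were called (0.0326%), with 0.0163% higher and 0.0163% lower. Tested members were 49 of 110 snoRNAs and 14 of 16 Snhg genes, and neither group had a call. At an unadjusted p under 0.05, limma gave 5 of 49 snoRNAs (10.2%) and 4 of 14 Snhg genes (28.6%), all higher in Mtg16-/- libraries, against 14.6% of all genes in either direction, 6.53% higher and 8.05% lower. Of the 49 tested snoRNAs, 8 had a mean under 1 TPM in 1 genotype, in WT for 6 of them, and so passed the filter through the other group. Snora75 (mean 1.41 TPM) and Snord67 (1.47 TPM) were just inside the filter with a value in a single library each, and Snora24 (0.555 TPM) and Snord7 (0.46 TPM) were just outside.

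The median log2 fold change, Mtg16-/- over WT, was 0.24 for snoRNAs and 0.34 for Snhg genes, beside -0.03 over all genes tested. The fold change was above 0 for 31 of 49 snoRNAs and 12 of 14 Snhg genes, against 46.4% of all genes. These snoRNA values include 6 members at 0 in every WT library (Snora15, Snora75, Snord1b, Snord1c, Snord67 and Snord88c) and 2 at 0 in every Mtg16-/- library, whose sign the filter fixed. For the 27 snoRNAs above 0 in every library the median was 0.18, with 16 above 0. Without Mtg16-/- 2 the snoRNA median was 0.11 and without Mtg16-/- 1 it was 0.57, while the Snhg median stayed between 0.23 and 0.47 whichever library was left out. Levels did not overlap between the genotypes for 3 snoRNAs and 3 Snhg genes, all higher in Mtg16-/- libraries, against 21.0% of all genes in either direction and 9.94% higher. In a permutation of single values, 3 libraries against 3 cannot go below an exact p of 0.1.

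The 8 snoRNAs with at least 10 steps in every library overlapped between the genotypes. Their log2 fold changes lay between -0.05 and 0.39, all with adjusted p of 0.505 or more in limma. Snord17, the highest by steps, had 229.7, 258.6 and 378.1 TPM in WT and 212.1, 446.1 and 368.5 TPM in Mtg16-/- libraries, with a log2 fold change of 0.21 ± 0.30 (SE, n = 3 and 3). Snora74a, inside Snhg4, had 217.3, 325.8 and 200.3 TPM in WT and 311.1, 435.4 and 234.9 TPM in Mtg16-/- libraries, with a log2 fold change of 0.39 ± 0.26. In both, the lowest Mtg16-/- value lay within the range of WT or below it. Snord22 had 359.8, 373.2 and 726.6 TPM in WT and 363, 715.1 and 536.1 TPM in Mtg16-/- libraries. A single WT library held its highest value. Snora78, inside Snhg9, had 286.5, 246.8 and 240.6 TPM in WT and 176.3, 368.6 and 251.5 TPM in Mtg16-/- libraries, so the lowest and the highest value were both Mtg16-/-.

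Snord15a and Snord15b, which sit inside the same gene, took different orders across the WT libraries. Snord15a had 220.2, 187.9 and 242.1 TPM in WT and 177.1, 340.6 and 241.6 TPM in Mtg16-/- libraries. Snord15b had 302.1, 308.9 and 241.4 TPM in WT and 230.3, 343.3 and 256.9 TPM in Mtg16-/- libraries. WT 2 held the lowest WT value of Snord15a and the highest of Snord15b, while both were lowest of all in Mtg16-/- 1 and highest in Mtg16-/- 2. Their host Rps3 was lowest in WT 1 with 483.8 TPM and highest in Mtg16-/- 3 with 873 TPM, which is another order. Snora68 had between 297.4 and 471.5 TPM in WT and between 333.3 and 519.8 TPM in Mtg16-/- libraries. Snora26, inside the noncoding gene Dancr, had between 55.12 and 92.65 TPM in WT and between 62.72 and 122.1 TPM in Mtg16-/- libraries. Snora7a had more steps in all than Snora26 but only 9.89 in WT 3. It had 132.9, 60.19 and 47.34 TPM in WT and 106.8, 129.1 and 93.57 TPM in Mtg16-/- libraries, with WT 1 the highest of all (log2 fold change 0.58 ± 0.35, limma adjusted p = 0.448).

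**Figure D3:**
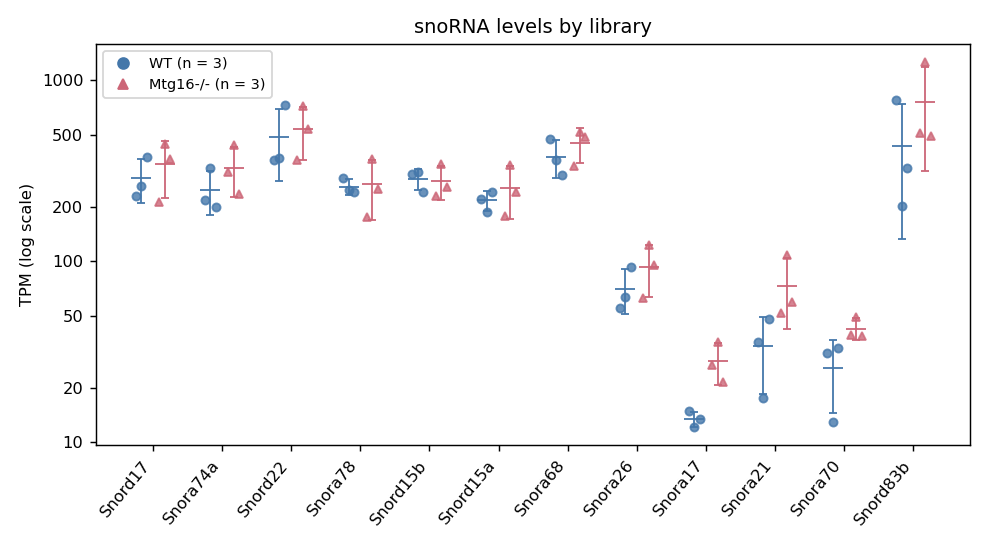
TPM (log scale) in each of the 3 WT (circles) and 3 Mtg16-/- (triangles) libraries for the 8 snoRNAs with at least 10 steps in every library, in order of steps, followed by Snora17, Snora21, Snora70 and Snord83b. Horizontal lines are means and bars are standard deviations. The groups overlap for the first 8 and for Snord83b, and are apart for Snora17, Snora21 and Snora70.

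The snoRNAs with the smallest p were all box H/ACA. Snora17 had 14.82, 12.22 and 13.46 TPM in WT and 26.65, 35.98 and 21.41 TPM in Mtg16-/- libraries. Its log2 fold change was 0.97 ± 0.19 (SE, n = 3 and 3, limma adjusted p = 0.172), and the groups lay apart. These values stood for 3.95, 2.99 and 2.97 steps in WT and 9.96, 10 and 7 steps in Mtg16-/- libraries. The steps show how little lies behind each value and do not measure the difference, since a step was worth less TPM in every Mtg16-/- library. The second snoRNA of the same host, Snora43, had 3.3, 18.16 and 16 TPM in WT and 4.75, 22.45 and 13.63 TPM in Mtg16-/- libraries, and the host Snhg7 had a log2 fold change of 0.21 ± 0.21. Snora43 and Snhg7 thus overlapped between the genotypes where Snora17 did not.

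Snora21, inside the gene of the large-subunit protein Rpl23, had 35.83, 17.52 and 48.23 TPM in WT and 51.56, 108.3 and 59.16 TPM in Mtg16-/- libraries (log2 fold change 1.1 ± 0.39, limma adjusted p = 0.291). Snora70, inside Rpl10, had 31.26, 12.9 and 33.14 TPM in WT and 39.36, 49.35 and 38.72 TPM in Mtg16-/- libraries (log2 fold change 0.80 ± 0.33, limma adjusted p = 0.322). In both, WT 2 was the lowest library, and without it their log2 fold changes were 0.72 and 0.38. Snora23, inside the importin gene Ipo7, had 9.72, 8.55 and 7.06 TPM in WT and 8.39, 34 and 22.48 TPM in Mtg16-/- libraries. Snora81, inside the translation initiation factor gene Eif4a2, had 4.76, 5.23 and 0 TPM in WT and 3.42, 34.67 and 19.65 TPM in Mtg16-/- libraries. Both were high in Mtg16-/- 2 and 3 only, with Mtg16-/- 1 inside the range of WT. Without Mtg16-/- 2 the log2 fold change was 0.66 in place of 1.08 for Snora23 and 1.53 in place of 2.17 for Snora81, and without WT 3 it was 1.31 for Snora81.

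In the other direction, Snord32a had the smallest p. It lies in Rpl13a, which holds 4 members. Snord32a had 229.9, 73.87 and 242.7 TPM in WT and 71.63, 95.84 and 108.2 TPM in Mtg16-/- libraries (log2 fold change -0.82 ± 0.43, limma adjusted p = 0.407). WT 2 lay among the Mtg16-/- values. Snord35a of the same host had 29.4, 0 and 0 TPM in WT and 10.62, 71.44 and 12.13 TPM in Mtg16-/- libraries, with a log2 fold change of 2.83 ± 1.32. These values stood for 1.98, 0 and 0 steps in WT and 1, 5.02 and 1 steps in Mtg16-/- libraries. Snord35a was called by limma when WT 1 was left out and, separately, with array weights, which gave WT 1 a weight of 0.32. Without WT 1 its WT values were all 0, so the filter fixed its sign and that call is no support for a difference. Snord33 of Rpl13a had 85.36, 31.89 and 34.96 TPM in WT and 41.31, 27.67 and 46.89 TPM in Mtg16-/- libraries (log2 fold change -0.27 ± 0.37). It overlapped between the genotypes and had no more than 2.97 steps in any library. Snord34 of Rpl13a, with 66 bases, was at 0 throughout. Snord123, inside Snhg18, and Snord8, inside Chd8, had a value only in WT 2, of 52.59 and 9.6 TPM. Snora44 in Snhg12 and Snora5c in Tbrg4 had log2 fold changes of -1.13 ± 0.98 and -0.58 ± 0.58. Snord118 (U8), which is transcribed from its own promoter and is needed for large-subunit ribosomal RNA processing, had no more than 3.95 steps in any library and was at 0 in WT 3 and Mtg16-/- 2.

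Among the Snhg genes, 14 had a mean of at least 1 TPM and lay between 1.68 and 75.2 TPM in single libraries. Snhg1 was the highest and Snhg10 the lowest. Snhg11 and Snhg14 did not exceed 0.21 TPM. Snhg18 had 15.72, 15.59 and 16.45 TPM in WT and 21.72, 22.17 and 25.22 TPM in Mtg16-/- libraries (log2 fold change 0.50 ± 0.12, limma adjusted p = 0.236). Snhg6, host of Snord87, had 25.62, 27.41 and 17.04 TPM in WT and 34.05, 34.83 and 37.55 TPM in Mtg16-/- libraries (0.61 ± 0.18, limma adjusted p = 0.266). Snhg8, host of Snora24, had 22.78, 35.18 and 30.17 TPM in WT and 37.04, 44.82 and 46.78 TPM in Mtg16-/- libraries (0.54 ± 0.18, limma adjusted p = 0.282). The groups lay apart in these 3 of the 14 genes, where 9.94% of all genes tested lay apart in the higher direction. They were apart most widely against the spread in Snhg18, and none passed the test.

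Snhg4 had 12.26, 19.53 and 16.74 TPM in WT and 17.91, 26.7 and 31.69 TPM in Mtg16-/- libraries (0.61 ± 0.24, limma adjusted p = 0.313), and Mtg16-/- 1 lay inside the range of WT. Snhg3 had 32.89, 34.17 and 31.96 TPM in WT but 29.97, 49.06 and 54.33 TPM in Mtg16-/- libraries, with Mtg16-/- 1 below WT. Mtg16-/- 1 thus stood at the level of WT for several Snhg genes, as it did for snoRNAs. The log2 fold changes of Snhg1, Snhg10, Snhg15, Snhg17 and Snhg7 were 0.30, 0.38, 0.42, 0.20 and 0.21. Single libraries decided most of these values. Without WT 1, Snhg15 had 0.18 and Snhg17 0.064, and Snhg17 had 0.014 without Mtg16-/- 2. Snhg10 had 0.16 without Mtg16-/- 3 and 0.70 without Mtg16-/- 1, and Snhg7 had -0.043 without WT 3. Snhg5 and Snhg12 were near 0 with 0.07 and 0.03. Snhg20 and Snhg9 alone were below 0, with -0.31 and -0.05. Mtg16-/- 3 had the highest value for 8 of the 14.

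**Figure D4:**
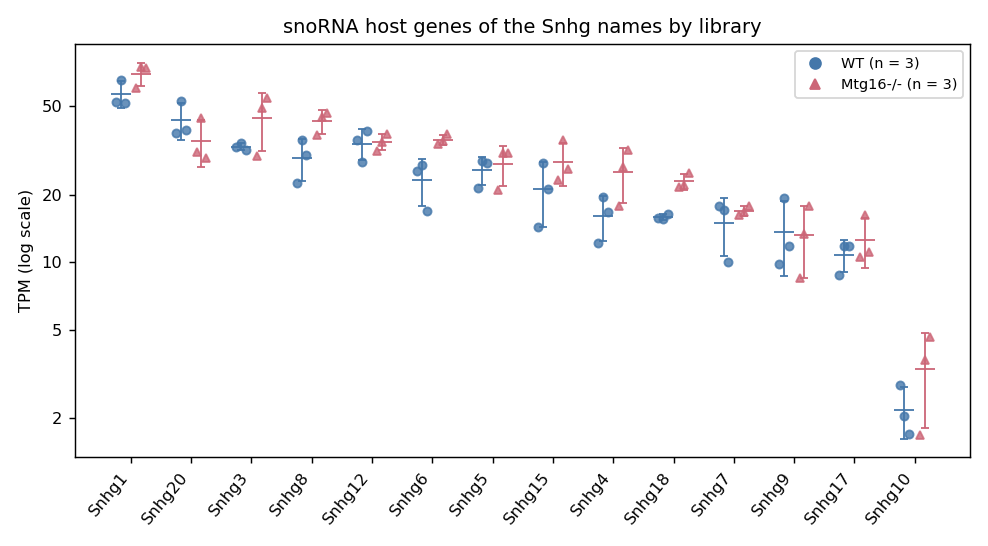
TPM (log scale) of the 14 Snhg genes with a mean of at least 1 TPM in each WT (circles) and Mtg16-/- (triangles) library, in order of mean TPM. Horizontal lines are means and bars are standard deviations. The groups lie apart for Snhg18, Snhg6 and Snhg8 and overlap for the other 11.

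Host genes outside the Snhg names were also compared. A gene on the same strand that spans the snoRNA was found for 108 of 110 snoRNAs, in 78 distinct genes. By the annotated gene type, 78 of the 110 lay in a protein-coding host, 32 of them in ribosomal protein genes, and 18 lay in Snhg genes. Cct6a, the host of Snora15, carried the type of a processed transcript and was not counted as protein-coding. Snhg16 counts among the Snhg genes here, but its row 1810032O08Rik is among the 67 hosts below. Of the 67 hosts in the table outside the Snhg names, 66 were tested and none was called, and the median log2 fold change was 0.27 with 51 above 0. The 23 ribosomal protein hosts were all above 0, between 0.27 and 0.55 with a median of 0.37, against 46.4% of all genes above 0. WT 1 was the lowest library in each of them. Rps2, with the smallest fold change, had 1984, 2869 and 2990 TPM in WT and 2847, 3092 and 3371 TPM in Mtg16-/- libraries. Rpl39, with the largest, had 817.4, 979.6 and 969 TPM in WT and 1198, 1234 and 1637 TPM in Mtg16-/- libraries. The part of WT 1 in these fold changes was not tested. Of the 23, 15 (65.2%) lay apart, all higher, against 9.94% of all genes. The 34 other tested protein-coding hosts had a median of 0.07, with 21 above 0. Levels of genes in 1 family vary together across libraries, so these counts do not stand for independent genes.

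Noncoding hosts with short snoRNAs gave some of the larger differences. The gene 2410006H16Rik, which holds Snord49a, Snord49b and Snord65, had 44.62, 63.48 and 77.27 TPM in WT and 113.6, 138.6 and 106 TPM in Mtg16-/- libraries (log2 fold change 0.96 ± 0.21, limma adjusted p = 0.219). Zfas1, which holds Snord12, had 37.55, 64.79 and 57.81 TPM in WT and 81.39, 122.2 and 94.08 TPM in Mtg16-/- libraries (0.90 ± 0.23, limma adjusted p = 0.251). Both were apart, as were 9.94% of all genes tested in the higher direction, and did not pass the test. All 4 of their snoRNAs are 66 bases or shorter and were listed at 0. Gas5, a growth-arrest transcript that holds Snord47, had 61.74, 58.88 and 64.98 TPM in WT and 54.85, 81.4 and 71.98 TPM in Mtg16-/- libraries, and overlapped. The noncoding hosts thus ranged from a log2 fold change of -0.64 in 2700038G22Rik, the host of Snord93, to 0.96.

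The fold changes of snoRNAs were set beside those of their hosts. Among the 47 pairs in which both were tested, over 41 hosts, 30 had the same sign and Spearman's rho was 0.03. The host was above 0 in 41 of these pairs and the snoRNA in 30, so many pairs would share a sign without any link. The pairs include the 6 snoRNAs at 0 in every WT library and the 2 at 0 in every Mtg16-/- library, whose sign the filter fixed. In the 27 pairs with the snoRNA above 0 in every library rho was 0.21. In the 8 with at least 10 steps 7 had the same sign, with the host above 0 in 7 and the snoRNA in 6. Their median was 0.20 for the snoRNA and 0.32 for the host, and rho was 0.35. These are descriptions over pairs from the same libraries, some of which share a host, and most rest on few steps. The level of the snoRNA exceeded that of its host in 6 of the 47 pairs. TPM of a short RNA and of a long host compare poorly, because the values of short RNAs depend strongly on the length used. By GENCODE, 41 of the 110 snoRNAs lie inside an exon of their host, among them Snord22 and Snora26. Reads could be shared between snoRNA and host there, which was not tested. On the log2(TPM + 1) scale, Snora78 stood above Snhg9 by a mean of 4.19 in WT and 4.22 in Mtg16-/- libraries, Snora74a above Snhg4 by 3.85 and 3.62, and Snord22 above Snhg1 by 3.01 and 2.88. Snora26 stood above Dancr by 2.23 and 2.61, and Snord17 above Snx5 by 1.62 and 1.65. The distance between snoRNA and host in these 5 pairs differed between the genotypes by less than the SD among libraries of 1 genotype, which lay between 0.43 and 0.54. Snora17 was above Snhg7 by 0.66 in Mtg16-/- libraries and below it by a mean log2 difference of -0.11 in WT, with an SD of 0.43.

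**Figure D5:**
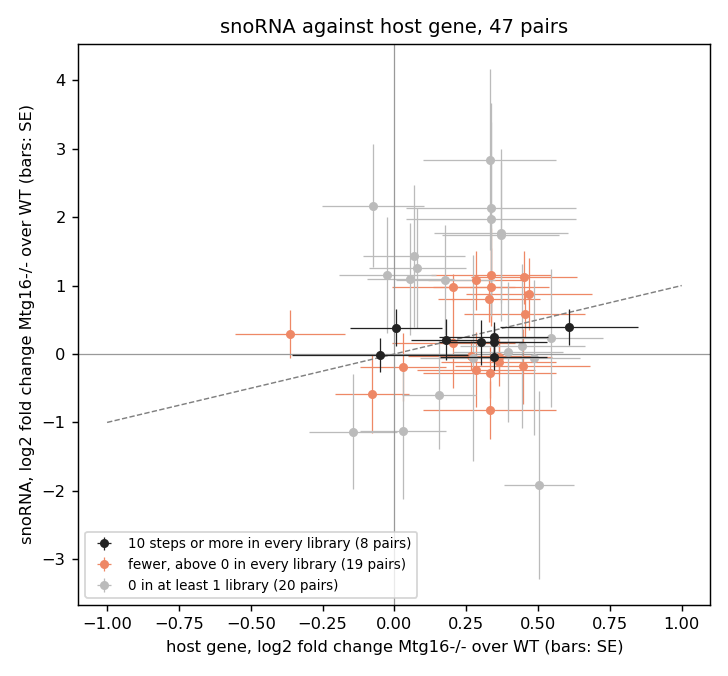
Log2 fold change (Mtg16-/- over WT) of a snoRNA against that of its host gene for 47 pairs, with standard errors as bars, coloured by the steps behind the snoRNA. The dashed line marks equal change. The 8 pairs with at least 10 steps in every library lie between -0.05 and 0.39 on the vertical axis, and the widest scatter is among the 20 pairs with the snoRNA at 0 in at least 1 library.

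Genes that make snoRNAs functional were compared from fixed lists, and none was called. The box C/D core proteins, among them the methyltransferase Fbl and the scaffold proteins Nop56 and Nop58, had a median log2 fold change of 0.06 over 5 tested genes. The 4 box H/ACA proteins, with the pseudouridine synthase Dkc1 and its partners Nhp2, Nop10 and Gar1, had a median of 0.10. Fbl had 131.4, 202 and 205.6 TPM in WT and 165.3, 198.9 and 220.2 TPM in Mtg16-/- libraries, and Dkc1 31.92, 42.29 and 47.83 TPM against 40.2, 51.46 and 54.26 TPM. Both overlapped. Assembly and transport factors had a median of 0.10 over 18 genes, with 1 apart in each direction (9.94% of all genes higher and 11.1% lower), and factors of nonsense-mediated decay, which degrades many spliced snoRNA hosts, had a median of 0.02 over 15. Of the decay factors 8 were above 0 and 7 below, with 1 apart higher and 2 apart lower. Magohb, of the exon junction complex, had the highest log2 fold change of them (0.52 ± 0.19, limma adjusted p = 0.297) and Smg5 the lowest (-0.38 ± 0.12, limma adjusted p = 0.270).

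Markers of cell types differed between the genotypes beside these values. All 10 enterocyte markers were lower in Mtg16-/- libraries by their means, with a median log2 fold change of -1.15. Their summed level was 12550 to 35810 TPM in WT and 6463 to 12840 TPM in Mtg16-/- libraries. The 35810 TPM was that of WT 1, beside 12550 and 15390 TPM in WT 2 and WT 3. All 7 Paneth cell markers had higher means, with 9024 to 19660 TPM in WT and 24080 to 29550 TPM in Mtg16-/- libraries, as had all 6 stem cell markers, with 846.7 to 1462 TPM against 1586 to 2100 TPM. All 5 enteroendocrine markers lay apart in the higher direction, where 9.94% of all genes did, with 190.3 to 231.8 TPM against 332.6 to 363 TPM. Lymphocyte markers summed to 34.98 to 115 TPM in WT and 21.82 to 56.95 TPM in Mtg16-/- libraries, and goblet cell markers to 5528 to 9994 TPM and 4709 to 6927 TPM. Tuft cell markers summed to at most 35.91 TPM, stromal markers to at most 19.52 TPM and neuronal markers to at most 2.47 TPM, and 5 proliferation markers had a median log2 fold change of 0.11. No marker list was at 0. The part of these shifts in the values of snoRNAs and hosts was not tested, and in bulk crypts fewer cells of a type and less RNA per cell cannot be told apart.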

How the data were processed

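Total RNA of intestinal crypts (3 WT and 3 Mtg16-/- libraries, 200 ng input, 14 PCR cycles) was depleted of ribosomal RNA by the authors. Per the labels, processing used cutadapt 1.9.1, STAR 2.5.2a, RSEM 1.3.0 and DESeq2 1.12.3 on mm10. The annotation is not given in the sources used here. The deposited values are TPM by gene symbol, estimated by RSEM. TPM keeps no depth.

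From these, log2(TPM + 1) was tested with limma 3.58.1 (lmFit, eBayes with trend, statmod 1.5.0, R 4.3.3) for 12268 genes with a mean of at least 1 TPM, with Benjamini-Hochberg adjustment and calls under 0.1. Fold changes on this scale understate changes of low genes. The code was tested on simulated data. Lengths came from RefSeq (GRCm38.p6), strands, hosts and sequences from GENCODE vM21. Per-library steps were fitted as described in the text, and figures were drawn with matplotlib 3.10.9.

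Members and lists were chosen with earlier results of these data known. Named were Snhg genes of at least 1 TPM, the 10 highest snoRNAs, the 5 with smallest p per direction, called members, Snord118, Snord14 copies and Snora74a, snoRNAs inside Snhg genes or Gas5, hosts of these, the 3 with narrowest and widest spread, and up to 4 genes a list. Members at 0, same-length pairs, Snora7a, Snord33, Snord35a, Rps2, Rpl39 and 2410006H16Rik were named after their values were seen. No values of the authors' own comparisons were used. A few host genes are not reported here.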

Additional observations from a re-analysis of the deposited data

How the results depend on the processing

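The call counts were 0 for snoRNAs and 0 for Snhg genes with a pseudocount of 0.1, no filter, a mean of at least 5 TPM, median-ratio rescaling, quantile normalization, a total without short structural RNAs, no intensity trend, robust moderation and an adjusted p under 0.05. Array weights, which gave the libraries weights between 0.32 (WT 1) and 3.10 (WT 3), called 9 snoRNAs and 3 Snhg genes. The replicate number as a block called 2 snoRNAs (Snora17 and Snora74a) and 4 Snhg genes (Snhg18, Snhg4, Snhg6 and Snhg8). Whether the numbers pair the samples was not settled. Deviations of each Mtg16-/- library correlated best with those of the WT library of its own number, at 0.429, 0.0753 and 0.237. For Mtg16-/- 2, WT 3 was close with 0.0547. Seen from the WT side, WT 2 correlated better with Mtg16-/- 3 (0.198) than with its own number. Over these settings the calls among all genes ranged from 0 to 1201, with 4 in the test as reported, 855 with array weights and 1201 with the block. Leaving out a library gave 0 to 1 snoRNA, the 1 being Snord35a without WT 1, and 0 Snhg genes. In that setting the WT values of Snord35a were all 0, so the filter fixed its sign.

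The snoRNA median log2 fold change was 0 without a filter, where 110 snoRNAs enter and most are at 0, and 0.49 with array weights. With 1 library left out it lay between 0.11 and 0.57, and the Snhg median between 0.23 and 0.47. Some members near 0 changed sign. With array weights the log2 fold change was -0.058 for Snhg12, -0.037 for Snord22, 0.19 for Snord15b and 0.23 for Snora78. With quantile normalization it was 0.047 for Snord15b and 0.084 for Snora78, and with median-ratio rescaling 0.0023 for Snora78. With 1 library left out the ranges that crossed 0 were -0.097 to 0.13 for Snhg12, -0.046 to 0.25 for Snhg5, -0.043 to 0.34 for Snhg7, -0.28 to 0.21 for Snhg9, -0.061 to 0.50 for Snord22, -0.013 to 0.52 for Snord17, -0.21 to 0.072 for Snord15b, -0.29 to 0.24 for Snora78, -0.059 to 0.41 for Snord15a and -2.05 to 0.13 for Snora44. The causes were not tested. No member has a known read depth, and values of fewer than 10 steps limit most snoRNA comparisons.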
